A study of Mus musculus with 11 samples.

Results

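The integrated stress response genes described here are 9 genes, Atf4, Atf3, Ddit3, Nupr1, Trib3, Chac1, Asns, Sesn2 and Hmox1, read from all 11 array probes whose gene name or current symbol is one of them. They are 9 of 21337 genes with a symbol on the array, and all 9 passed the filter on dim probes that left 15946 genes for testing. Each of the 11 probes was well above background on all 11 arrays. RNA came from livers of mice on a hybrid 129 x C57BL/6 background. The mutants were double transgenic AFP-Cre/Rosa26-lsl-NICD mice, in which Cre recombinase under the alpha-fetoprotein promoter removes a stop cassette ahead of the Notch intracellular domain. That promoter is active in fetal liver parenchymal cells, and which cells had recombined was not measured on these arrays. The controls were mono transgenic and carried the silent Rosa26-lsl-NICD allele without Cre, an allele that all 4 groups share. There were 3 mutants and 3 controls at postnatal day 2, and 3 mutants and 2 controls at day 0, the day of birth. The labels do not say whether any sample was pooled or which pups shared a litter, so p-values measure the spread between these samples.

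Cells answer several kinds of stress, among them unfolded protein in the endoplasmic reticulum (ER), amino acid shortage, heme shortage and viral RNA, by phosphorylating the translation initiation factor eIF2. Most translation then slows, while the mRNA of the transcription factor ATF4 is translated better, and ATF4 switches on genes for amino acid supply, redox control and, where stress lasts, cell death. In liver this response is known for its part in amino acid and protein-folding stress and for hormones such as FGF21. Among the members, Atf4, Atf3 and Ddit3 (CHOP) encode bZIP transcription factors, and Nupr1 encodes a small nuclear stress protein. Trib3 encodes a pseudokinase that binds ATF4 and AKT, Chac1 an enzyme that degrades glutathione, and Asns asparagine synthetase. Sesn2 encodes a sestrin that senses leucine and restrains mTORC1, and Hmox1 the heme-degrading enzyme heme oxygenase 1, a target of NRF2 as well as of stress-induced bZIP factors.

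Promoters were read from RefSeq (build GRCm38.p6) for 8 of the 9 members, each from 250 bases before to 50 bases after the annotated start. They are shown for the 5 members that hold the composite motif of ATF4 and C/EBP factors, searched as TGATGNAA on both strands, with the match in capitals. Each runs 5′ to 3′ on the strand of its gene, so TTGCATCA and TTACATCA are matches on the opposite strand. The windows are chr7:126625421-126625720 for Nupr1, chr1:191183284-191183583 for Atf3, chr2:152344011-152344310 for Trib3, chr6:7693160-7693459 for Asns, all on the minus strand, and chr2:119350992-119351291 on the plus strand for Chac1.
Nupr1: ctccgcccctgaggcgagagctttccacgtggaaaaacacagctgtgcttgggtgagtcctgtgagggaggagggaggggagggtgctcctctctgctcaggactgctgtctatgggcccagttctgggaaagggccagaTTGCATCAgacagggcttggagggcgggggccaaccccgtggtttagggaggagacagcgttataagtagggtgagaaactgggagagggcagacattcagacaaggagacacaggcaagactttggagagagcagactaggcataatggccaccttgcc
Atf3: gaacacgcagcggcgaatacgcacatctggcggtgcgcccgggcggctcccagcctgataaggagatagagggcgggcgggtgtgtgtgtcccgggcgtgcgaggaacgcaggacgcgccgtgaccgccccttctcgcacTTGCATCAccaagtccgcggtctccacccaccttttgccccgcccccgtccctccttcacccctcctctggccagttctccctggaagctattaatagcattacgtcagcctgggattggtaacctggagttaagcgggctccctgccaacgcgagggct
Trib3: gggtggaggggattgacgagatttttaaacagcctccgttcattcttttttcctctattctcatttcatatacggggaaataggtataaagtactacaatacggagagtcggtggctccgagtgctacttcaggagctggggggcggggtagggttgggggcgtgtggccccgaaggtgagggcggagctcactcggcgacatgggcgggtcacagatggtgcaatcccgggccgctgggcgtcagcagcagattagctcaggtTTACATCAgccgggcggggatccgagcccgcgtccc
Chac1: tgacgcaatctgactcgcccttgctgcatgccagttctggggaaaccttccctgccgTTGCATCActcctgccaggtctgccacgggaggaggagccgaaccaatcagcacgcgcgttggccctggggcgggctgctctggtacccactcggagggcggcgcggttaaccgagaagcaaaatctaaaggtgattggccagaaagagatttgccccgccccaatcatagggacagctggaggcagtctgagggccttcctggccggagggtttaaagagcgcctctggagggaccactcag
Asns: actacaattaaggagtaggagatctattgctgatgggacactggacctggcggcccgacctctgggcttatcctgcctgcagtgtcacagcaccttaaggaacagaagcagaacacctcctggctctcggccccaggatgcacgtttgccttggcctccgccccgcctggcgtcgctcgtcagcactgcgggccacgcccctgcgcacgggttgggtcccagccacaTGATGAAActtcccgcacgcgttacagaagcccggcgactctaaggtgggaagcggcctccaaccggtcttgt
The match began at position -110 in Nupr1 and also in Atf3, at -193 in Chac1, at -23 in Asns and at 14 in Trib3, counted from the start as 0. Only that of Asns lay on the strand of the gene. The motif stood in 5 of 8 member promoters (62.5%), against 3.97% of all 32851 promoters in the table and 2.99% of the 12128 promoters of tested genes. Among 430 promoters of genes that were at least 2-fold higher on day 0 mutant replicate 3 than on every other array, 22 (5.12%) held it. Those 22 include the members Nupr1, Atf3, Trib3 and Chac1, so this share is not independent of that of the members. The cAMP response element TGACGTCA, another site of bZIP factors, was found in 0 of 8 member promoters, against 1.79% of all promoters, 3.15% of those of tested genes and 3.02% of the 430. A match describes letters in this window and no binding.

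**Figure D1:**
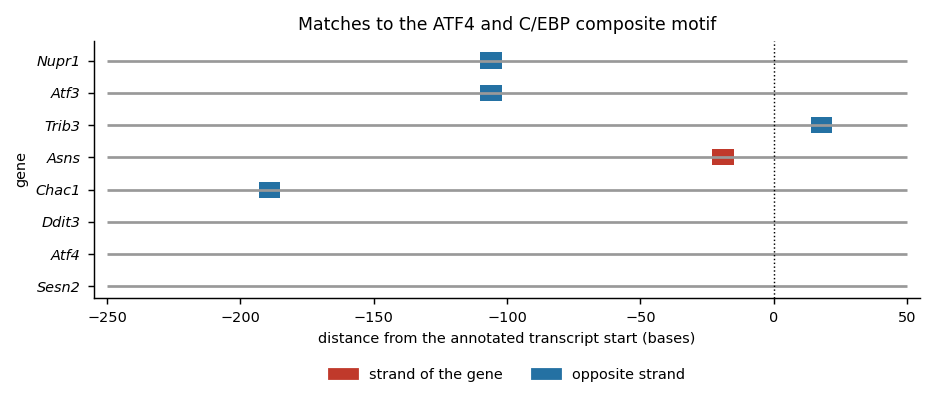
Matches to TGATGNAA in the promoters of 8 members, plotted by distance in bases from the annotated start (x axis), red on the strand of the gene and blue on the opposite strand. 5 of the 8 windows hold a match, and in Nupr1 and Atf3 it begins at the same position, -110.

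Each level is the log2 processed signal minus the 75th percentile of its own array on that scale, so that 0 is that percentile and a difference of 1 is 2-fold. The number of arrays limits their precision. The 75th percentile itself lay between 608 and 1302 intensity units, lowest on day 0 mutant replicate 3. That array stood apart: 615 genes were at least 2-fold above and 470 at least 2-fold below all other arrays, while no other array had more than 56 or 66. Its correlation with the other day 0 mutants across genes was 0.954 and 0.952, against 0.983 to 0.991 between other arrays of one group. Hepatocyte markers were well above background in every group (10 of 10). Y-linked transcripts were above background in 0 of 3 day 0 mutants and 2 of 2 day 0 controls, so sex and genotype cannot be told apart at day 0, and in 1 of 3 arrays of each day 2 group. Replicates 1, 2 and 3 lay on slides 1, 2 and 3, and each group kept 1 array position on every slide, so position and group cannot be told apart.

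The plot of member levels by array shows the leading feature of these genes. On day 0 mutant replicate 3, 8 of the 9 members had their highest level of all 11 arrays, as did 21.8% of all genes, and 7 were at least 2-fold above every other array, as were 3.86% of all genes. Apart from that array, members differed in which samples were high, and Asns was the member called between the genotypes over all arrays, lower in day 2 mutants (adjusted p = 0.00403 in limma). Ddit3 and Atf4 were also lower in every day 2 mutant than in every day 2 control, but did not pass over all arrays (0.555 and 0.376). Nupr1, Sesn2 and Hmox1 were placed the same way, as were 24.6% of all genes.

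**Figure D2:**
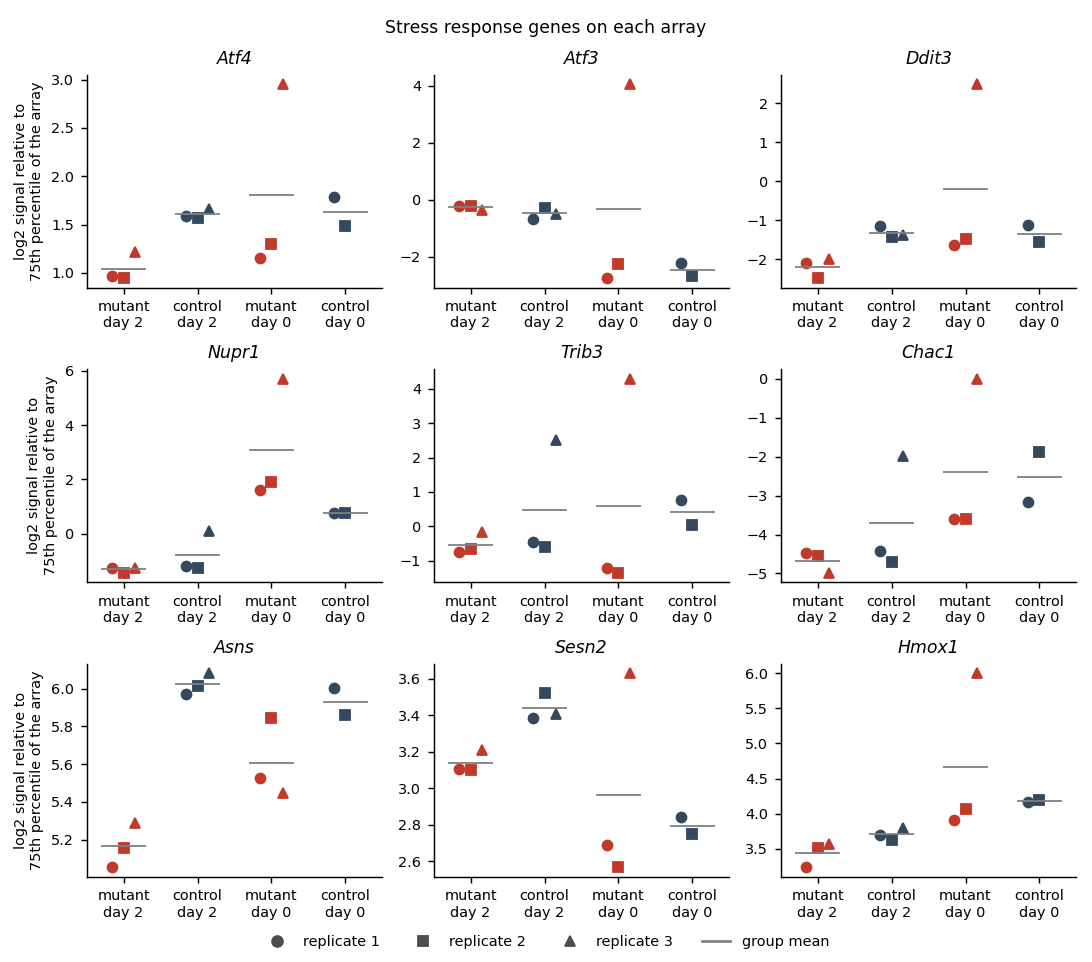
Log2 level, with 0 at the 75th percentile of each array (y axis, own range per gene), of the 9 members on each of the 11 arrays, by group (x axis: day 2 mutants, day 2 controls, day 0 mutants, day 0 controls; mutants red, controls dark), with replicates 1, 2 and 3 as circles, squares and triangles and the group mean as a line. The red triangle at day 0 is the highest point for every member but Asns, and the dark triangle at day 2 stands above its group for Trib3, Chac1 and Nupr1.

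Atf4, the factor at the centre of the response (probe at chr15:80083904-80083963, mm8), had levels of 0.96, 0.95 and 1.21 in day 2 mutants, against 1.59, 1.57 and 1.66 in day 2 controls. Its day 0 levels were 1.15, 1.30 and 2.95 in mutants, against 1.78 and 1.48 in controls. All day 2 mutants were below all day 2 controls, while replicate 3 was the 1 day 0 mutant above the day 0 controls. Ddit3, whose product CHOP promotes cell death under lasting ER stress (chr10:126698411-126698714, mm8), had -2.11, -2.48 and -1.99 in day 2 mutants, against -1.16, -1.43 and -1.37 in day 2 controls. At day 0 its levels were -1.64, -1.49 and 2.49 in mutants, against -1.14 and -1.57 in controls. Its day 2 groups did not overlap either, and the other day 0 mutants lay between the day 0 controls or below them. Atf3, a stress-induced bZIP factor that mostly represses transcription (chr1:192871283-192871342, mm8), had -0.24, -0.23 and -0.35 in day 2 mutants, against -0.67, -0.29 and -0.50 in day 2 controls. Day 0 mutants had -2.75, -2.28 and 4.06, against -2.23 and -2.68 in the day 0 controls. The genotypes overlapped on both days, and all arrays of day 0 other than mutant replicate 3 were below all arrays of day 2.

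Nupr1 (chr7:126414612-126414671, mm8) had -1.27, -1.43 and -1.25 in day 2 mutants, against -1.20, -1.25 and 0.11 in day 2 controls. Day 0 mutants had 1.63, 1.90 and 5.71, against 0.77 and 0.77 in the day 0 controls. It was the member in which every day 0 mutant was above every day 0 control, while every day 2 mutant was below every day 2 control, though the nearest of them round to the same level of -1.25. Trib3, itself a target of ATF4 and CHOP, had -0.77, -0.66 and -0.18 in day 2 mutants, against -0.46, -0.60 and 2.52 in day 2 controls (chr2:152029060-152029119, mm8). At day 0 this probe had -1.21, -1.35 and 4.30 in mutants, against 0.76 and 0.04 in controls. Its second probe (chr2:152029730-152029789) was high on the same arrays, with -1.59, -1.49 and -1.20 in day 2 mutants, against -1.32, -1.34 and 1.49 in day 2 controls, and 2.73 in day 0 mutant replicate 3. Chac1 (chr2:119045695-119045754, mm8) had -4.48, -4.56 and -4.98 in day 2 mutants, against -4.42, -4.70 and -1.98 in day 2 controls. In the day 0 mutants it was at -3.61, -3.60 and 0.0026, against -3.17 and -1.87 in the day 0 controls. Trib3 and Chac1 thus shared their highest array, day 0 mutant replicate 3, stood above their group in day 2 control replicate 3, and were lower in the other day 0 mutants than in both day 0 controls.

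Asns (chr6:7625194-7625253, mm8), which makes asparagine from aspartate and glutamine, had 5.06, 5.16 and 5.29 in day 2 mutants, against 5.97, 6.01 and 6.08 in day 2 controls. At day 0 it had 5.53, 5.84 and 5.45 in mutants, against 6.00 and 5.86 in controls. Every mutant was below every control of its day, and day 0 mutant replicate 3 was the lowest array of day 0. Sesn2 (chr4:131764135-131764194, mm8) had 3.10, 3.10 and 3.21 in day 2 mutants, against 3.38, 3.52 and 3.41 in day 2 controls. In the day 0 mutants it was at 2.69, 2.57 and 3.63, against 2.84 and 2.75 in the day 0 controls. Its other probe (chr4:131765019-131765078) did not repeat the day 2 order, with 1.81, 1.70 and 1.72 in mutants, against 2.01, 1.42 and 1.62 in controls. Hmox1 (chr8:77996380-77996439, mm8) had 3.24, 3.51 and 3.57 in day 2 mutants, against 3.69, 3.63 and 3.80 in day 2 controls. At day 0 it had 3.91, 4.07 and 6.00 in mutants, against 4.17 and 4.19 in controls. The day 2 groups of Hmox1 did not overlap, and its day 0 mutants lay on both sides of the controls.

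On day 0 mutant replicate 3, Atf3 was 19.6-fold above the next highest array, Nupr1 14.0-fold, Ddit3 12.3-fold, Chac1 3.66-fold, Hmox1 3.50-fold, Trib3 3.43-fold and Atf4 2.25-fold. Sesn2 was 1.08-fold above the next highest array, and Asns was 0.645 times the highest level elsewhere. With 1 array there is no replicate check of these folds. Against the mean of the other 2 day 0 mutants, the array was higher by 6.58 for Atf3, 5.57 for Trib3, 4.05 for Ddit3, 3.95 for Nupr1, 3.61 for Chac1, 2.01 for Hmox1, 1.73 for Atf4 and 1.00 for Sesn2, just under 2-fold, on the log2 scale. The log2 difference of Asns was -0.24. The next array to stand out was day 2 control replicate 3, higher than the other day 2 controls by 3.04 for Trib3, 2.58 for Chac1 and 1.33 for Nupr1. On that array the 3 transcription factors Atf4, Atf3 and Ddit3 differed from the other controls by 0.085, -0.018 and -0.077.

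**Figure D3:**
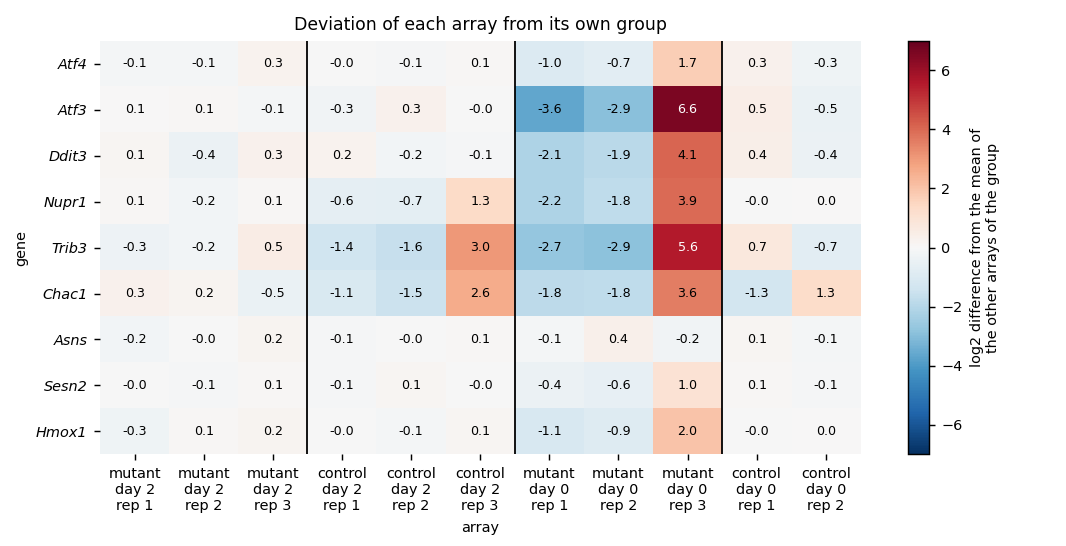
Log2 difference of each array (columns) from the mean of the other arrays of its own group (colour and printed value) for the 9 members (rows). On day 0 mutant replicate 3 all members but Asns are higher, and on day 2 control replicate 3 Trib3, Chac1 and Nupr1 are. Each such array also enters the mean that the others of its group are set against and lowers their values, as for Atf3 at -3.6 and -2.9 on day 0 mutant replicates 1 and 2.

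Other gene lists were high on the same day 0 array. Counting genes at least 2-fold above the mean of the other arrays of the group, 7 of 9 members were, against 10.1% of all genes tested. Of 41 other targets of ATF4 and of the amino acid response, 13 were. Gdf15, a secreted stress cytokine, was 5.67 higher on the log2 scale, Fgf21, a fasting hormone of the liver, 4.64 higher and Ddit4, an inhibitor of mTORC1, 3.32 higher. Cebpb, the bZIP partner of ATF4, was 2.64 higher. The aminoacyl-tRNA synthetase gene Tars was at 0.037, the amino acid transporter gene Slc7a5 at -0.15 and the serine synthesis gene Psat1 at 0.66, all under 2-fold. None of the 18 genes of the eIF2 kinases, eIF2, its exchange factor and its phosphatases was. Of 31 ER chaperones and genes of the XBP1 and ATF6 branches 11 were, among them Derl3, of ER-associated degradation, at 5.60, Creld2 at 2.81 and Hspa5, the chaperone BiP, at 1.55.

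Hypoxia genes (81.0%) and immediate early genes (78.9%) had shares on that array close to that of the members (77.8%), and the other pathway lists had lower shares. Of 21 hypoxia genes 17 were at least 2-fold higher, with Ankrd37 at 4.67 and Egln3, an oxygen-sensing prolyl hydroxylase, at 2.46. Of 19 immediate early genes 15 were, with Ier3 at 4.94, Ccn1 at 3.77 and Jun at 2.26. Of 19 p53 targets 7 were, with the cell cycle inhibitor gene Cdkn1a at 2.64, and 4 of 16 heat shock genes and 6 of 31 NRF2 targets and heme genes were. Markers of blood cells moved on the same array. All 7 megakaryocyte markers were at least 2-fold above the other day 0 mutants, with a summed level of 121 on this array, against 35.9 and 53.8 on the other day 0 mutants and 94.6 and 120 in day 0 controls. The granulocyte and monocyte sum was 952, against 437 and 465 in the other day 0 mutants and 629 and 842 in day 0 controls. On this array 4 of 7 lymphoid, 4 of 9 erythroid and 4 of 10 macrophage markers were at least 2-fold lower, while 1 macrophage marker was at least 2-fold higher. The macrophage sum was 101, between the 91.5 and 105 of the other day 0 mutants. The bile duct sum was 93.4, against 172 and 341 in the other day 0 mutants and 24.6 and 21.8 in day 0 controls. For hepatocyte markers it was 4682, against 3631 and 3924 in those mutants and 4111 and 4402 in those controls. The part of cell makeup or of hypoxia in the levels of the members was not tested. In bulk liver RNA, fewer cells of a type and less RNA per cell cannot be told apart.

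**Figure D4:**
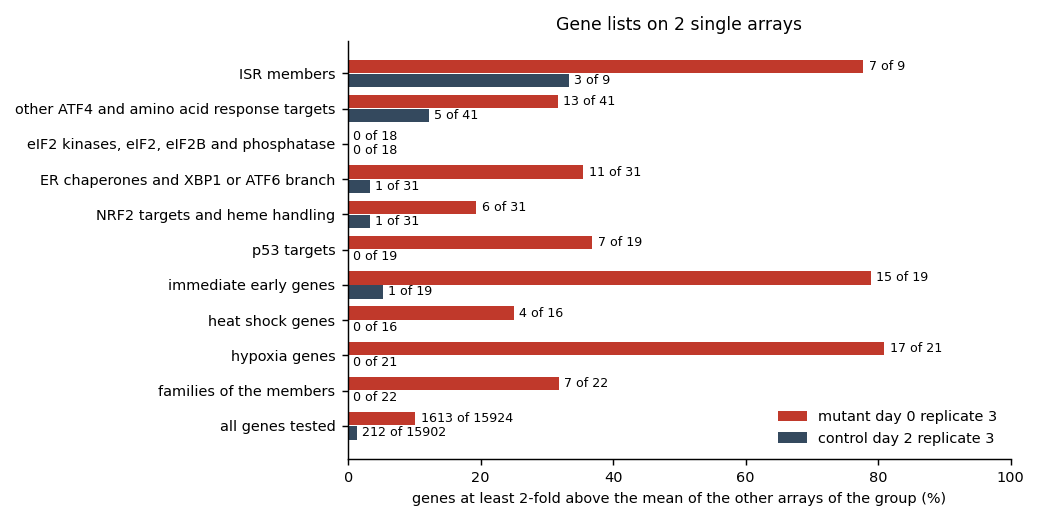
Percent of the genes of each list (rows) at least 2-fold above the mean of the other arrays of the group, on day 0 mutant replicate 3 (red) and day 2 control replicate 3 (dark), with counts at the bars. Members, hypoxia genes and immediate early genes reach 7 of 9, 17 of 21 and 15 of 19 on the day 0 array, against 1613 of 15924 genes in all.

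On day 2 control replicate 3, 3 of 9 members and 5 of 41 other ATF4 targets were at least 2-fold higher, against 1.33% of all genes. The 5 were Fgf21 at 3.89, Slc7a3 at 2.65, Gpt2 at 1.35, Psph at 1.19 and Stc2 at 1.14, and Slc7a3, Psph and Stc2 are named here after their values were seen. Hypoxia, p53 and heat shock genes had 0 such genes on this array, and immediate early genes, ER genes and NRF2 targets had 1 each. Fgf21 had -3.65, -4.49 and -2.76 in day 2 mutants, against -1.27, -1.23 and 2.64 in day 2 controls. This control was the highest of all 11 arrays for Fgf21. It and mutant replicate 1 were the day 2 arrays with Y-linked transcripts, and in that mutant Trib3 was the lowest of its group, Chac1 the highest and Nupr1 between the others. With sex as a covariate the day 2 differences between the genotypes kept their values of -1.02 for Trib3, -0.97 for Chac1 and -0.54 for Nupr1, as both day 2 groups held 1 such array. Over both days the covariate gave 0.25 for Trib3 and 0.29 for Chac1, against -0.42 and -0.43 without it, and none of these passed. Sex varied within groups only at day 2, so the covariate was set by the day 2 arrays, this control among them, and carried over to day 0. Leaving out this control, with no covariate, gave 0.087 for Trib3 and 0.0027 for Chac1. The change of sign thus cannot be read as an effect of sex.

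The comparison of the genotypes at day 2 asks how the response genes stood once Notch signalling had been active until 2 days after birth. Asns fell in day 2 mutants, with 5.17 ± 0.12 in mutants against 6.02 ± 0.05 in controls (SD, n = 3 each), a log2 difference of -0.86 ± 0.14 (SE) and a fold of 0.553. The adjusted p was 0.00403 in limma over 15946 genes, of which 16.2% passed and 6.57% fell. It was lower in 3 of 3 mutants, and within slides 1, 2 and 3 the difference was -0.92, -0.86 and -0.79. In the authors' deposited table the call was lost, at -0.52 with an adjusted p of 0.0712 in limma, and with quantile normalisation of the signals it was -0.51 (0.0380). No other member passed. Ddit3 differed by -0.87 ± 0.90 (SE), Atf4 by -0.57 ± 0.40 and Sesn2 by -0.30 ± 0.25. Nupr1, Trib3 and Chac1 differed by -0.54, -1.02 and -0.97, which became -0.092, -0.0062 and -0.11 without day 2 control replicate 3. Of the 9 members 6 (Asns, Ddit3, Atf4, Nupr1, Sesn2 and Hmox1) had all day 2 mutants below all day 2 controls, as did 24.6% of all genes, and none had them all above, as did 20.8%.

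For members such as Ddit3 and Atf4, the error of these day 2 differences rested largely on an array of another day. All 11 arrays share 1 estimate of the spread, and day 0 mutant replicate 3 widened it for every member. Without that array the day 2 differences were the same and their standard errors were 0.17 for Ddit3 and 0.12 for Atf4. That of Asns was 0.12, against 0.14 with the array, and those of Trib3 and Chac1 were still 0.74 and 0.67 without it. Then 4 of the 9 members fell, against 14.9% of 16045 genes, of which 29.6% were called in either direction: Asns (adjusted p = 0.00158 in limma), Ddit3 (0.00707), Atf4 (0.0110) and Sesn2 (0.0466). Fitted on the 6 day 2 arrays alone, Asns, Ddit3 and Atf4 fell with adjusted p of 0.00470, 0.0159 and 0.0204 in limma, and Sesn2 did not pass at 0.0815, so that 3 of 9 fell, against 11.5% of all genes, of which 24.6% were called in either direction. The other probe of Sesn2 differed by 0.058 at day 2. Within slides the difference of Ddit3 was -0.95, -1.05 and -0.61 and that of Atf4 -0.63, -0.62 and -0.45. Hmox1 differed by -0.27 (95% interval -0.54 to 0.0052) and Atf3 by 0.21 (-0.19 to 0.61) without the array, and neither passed. The interval of Trib3 was -2.72 to 0.67.

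**Figure D5:**
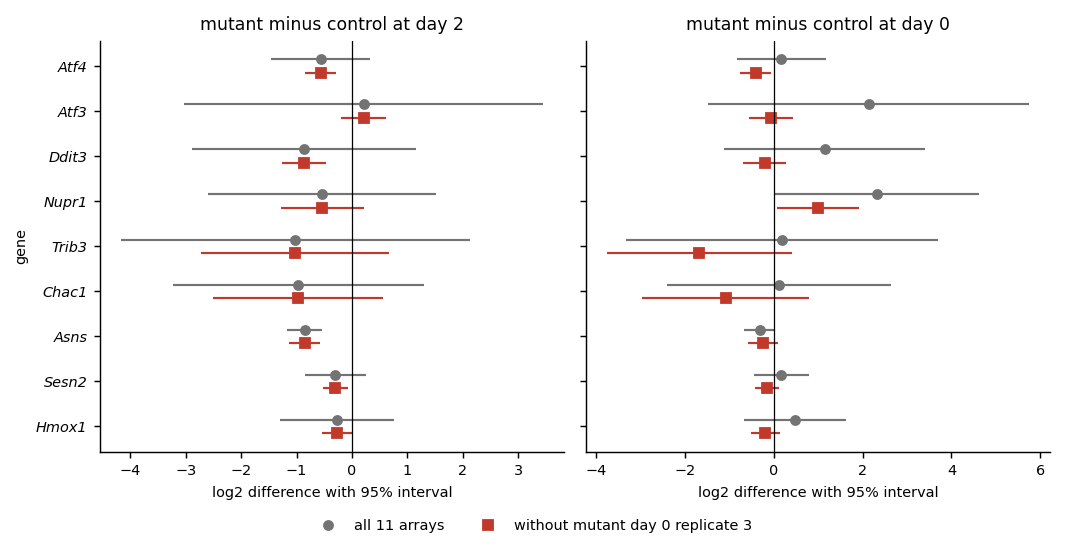
Log2 difference between mutants and controls at day 2 (left) and day 0 (right) for the 9 members (rows), with 95% intervals of the limma fit (lines), over all 11 arrays (grey circles) and without day 0 mutant replicate 3 (red squares). At day 2 the points coincide and the intervals shrink, while at day 0 the points of most members move to the other side of 0.

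Of the 41 other ATF4 and amino acid response targets tested at day 2, 5 fell, against 6.57% of all genes, 1 rose and 35 did not pass, with a median log2 difference of -0.45, against -0.10 over all genes. The falls were those of the amino acid transporter genes Slc1a4, by 1.81 on the log2 scale (adjusted p = 0.0105 in limma), Slc7a1 (-0.85, 0.0230) and Slc7a5 (-0.82, 0.0103), of Mthfd2, of mitochondrial folate metabolism (-1.42, 0.0201), and of Pycr1, which makes proline (-0.70, 0.0325). Slc7a1 is named because it completes the 5. Slc1a4 had -1.12, -1.50 and -0.94 in day 2 mutants, against 0.90, 0.52 and 0.45 in day 2 controls. Mthfd2 had -1.23, -1.50 and -1.45 in mutants, against 0.18, -0.20 and 0.11 in controls of that day. Gpt2, a mitochondrial alanine aminotransferase, was the one that rose, with 3.72, 4.40 and 4.28 in mutants, against 0.48, 1.64 and 2.41 in controls (2.62, 0.00610). Without day 0 mutant replicate 3, 19 of the 41 fell and 2 rose, against 14.9% falls among all genes. Those 19 included Fgf21 (-3.67, adjusted p = 0.0403), Atf5 (-0.91, 0.0189), Cebpb (-0.55, 0.0226) and the tRNA synthetase gene Aars (-0.60, 0.0153) in limma. Psat1 differed by 0.31 and did not pass in either fit.

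Of the 4 eIF2 kinases, Eif2ak3 (PERK, the ER stress sensor) rose at day 2 by 0.81 (adjusted p = 0.0203 in limma), with 0.61, 0.50 and 0.12 in mutants, against -0.51, -0.15 and -0.55 in controls. Eif2ak1 (HRI, the heme-regulated kinase of erythroid cells) fell by 0.84 on the log2 scale (0.0144), with 0.23, -0.10 and 0.26 in mutants, against 1.05, 0.97 and 0.88 in controls. Eif2ak2 (PKR) and Eif2ak4 (GCN2) differed by -0.14 and 0.13 and did not pass. Over the 18 genes of this list 1 rose and 2 fell, the other fall being that of Eif2s1, which encodes the phosphorylated eIF2 subunit (-0.56, 0.0301). That share is close to the 16.2% of all genes called in either direction at day 2. Of the 31 ER chaperones and XBP1 or ATF6 genes 0 passed at day 2 with limma over all arrays, 1 at an unadjusted p under 0.05, and 0 without day 0 mutant replicate 3, 6 at an unadjusted p under 0.05. Hspa5 differed by -0.083 there.

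Cell type markers also differed at day 2. Among all genes 16.2% were called there, 6.57% as falls, and 14.9% fell without day 0 mutant replicate 3. The summed level of 9 erythroid markers was 50.1 to 90.5 in day 2 mutants, against 167 to 259 in day 2 controls, and 6 of the 9 fell. That of 8 bile duct markers was 222 to 267 in mutants, against 9.73 to 17.2 in controls, and 7 of the 8 rose. Hepatocyte markers summed to 2458 to 2584 in mutants, against 3299 to 4408 in controls, and 7 of 10 fell. Megakaryocyte markers summed to 47.0 to 52.3 in mutants, against 90.4 to 101 in controls, and 0 of 7 passed in limma over all arrays, 6 at an unadjusted p under 0.05, while 7 of 7 fell without day 0 mutant replicate 3. Macrophage markers overlapped, at 83.1 to 136 in mutants against 101 to 112 in controls, but 2 of 10, Adgre1 and Csf1r, fell over all arrays and 5 of 10 without day 0 mutant replicate 3. Adgre1, which encodes a surface marker of macrophages, fell by 0.82 on the log2 scale (adjusted p = 0.0189 in limma) and Csf1r, a growth factor receptor of these cells, by 0.65 (0.0200), both named here after their values were seen. Granulocyte and monocyte markers summed to 298 to 321 in mutants, against 379 to 440 in controls. The sums of stellate and portal fibroblast markers overlapped, at 61.4 to 98.1 in mutants against 57.4 to 62.5 in controls. Endothelial sums (13.2 to 18.0 against 16.4 to 20.6) and lymphoid sums (8.03 to 13.9 against 9.76 to 13.4) overlapped as well. The part of cell makeup in the lower levels of Asns, Ddit3 and Atf4 was not tested.

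At day 0 no member passed, against 2.3% of all genes, and 1 had an unadjusted p under 0.05. Of the 41 other ATF4 targets, 18 eIF2 genes and 31 ER genes 0 passed as well in limma, with 3, 4 and 8 at an unadjusted p under 0.05. Nupr1 had the difference nearest to the threshold, 2.31 ± 1.02 (SE, adjusted p = 0.329 in limma, unadjusted 0.0488), and 1.00 without replicate 3 of the mutants (0.214). Ddit3 differed by 1.14, Atf3 by 2.13, Atf4 by 0.17, Sesn2 by 0.17 and Hmox1 by 0.48, and without that array these became -0.21, -0.061, -0.41, -0.17 and -0.19. Trib3 and Chac1 differed by 0.18 and 0.12, and by -1.68 and -1.08 without it. Every one of these changed sign, so the direction of the day 0 difference of 7 members rested on 1 array. Asns kept its sign, at -0.32 and -0.24. The groups of 2 members did not overlap at day 0: Nupr1 was above the controls in every mutant, as were 16.7% of all genes, and Asns below them, as were 15%. Without the array no member passed, against 5.6% of all genes, and 4 of 31 ER genes rose: Manf by 0.81 (0.0120), Creld2 by 0.89 (0.0364), Derl3 by 1.76 (0.0290) and Sec61b by 0.67 (0.0361), with adjusted p from limma.

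Over both days, with equal weight, Asns fell by 0.59 ± 0.11 on the log2 scale (SE, adjusted p = 0.00587 in limma), lower in 6 of 6 mutants than in all controls of their day. It was the 1 member of 9 that passed, against 15.7% of all genes and 6.93% that fell. All mutants lay below all controls for 15% of genes at day 0, where sex and genotype cannot be told apart, and for 24.6% at day 2. Over all arrays Ddit3 differed by 0.13 (adjusted p = 0.923 in limma) and Atf4 by -0.20 (0.714). Without day 0 mutant replicate 3, Asns (-0.55, adjusted p = 0.00433 in limma), Atf4 (-0.49, 0.00883) and Ddit3 (-0.54, 0.0213) fell, 3 of 9 against 12.4% of all genes, of which 25.5% were called in either direction. Leaving out this 1 array turned the sign of Ddit3 and enlarged the difference of Atf4. Of the 41 other ATF4 targets 6 fell and 1 rose, and without the array 15 fell and 1 rose. Atf5, an ATF4-related bZIP factor, fell by 1.10 on the log2 scale (0.00680) and Tars by 0.44 (0.0256). Eif2ak3 rose by 0.58 (0.0262) and Impact, a brake on GCN2, by 0.52 (0.0164). The difference between the days, the test of whether the genotype effect differed between day 2 and day 0, passed for no member, against 0.27% of all genes, and 1 member had an unadjusted p under 0.05. It was -2.85 ± 1.37 for Nupr1 (adjusted p = 0.378) and -0.53 ± 0.21 for Asns (0.299) in limma. For Asns it was -0.096 with quantile normalisation and -0.071 in the authors' deposited table. Without day 0 mutant replicate 3 no member passed either, against 1.71% of all genes, with 3 at an unadjusted p under 0.05.

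Day 2 against day 0 compares livers after the first 2 days of life with livers at birth. In mutants Nupr1 fell by 4.40 ± 0.91 (SE, adjusted p = 0.0125 in limma), with -1.32 ± 0.10 at day 2 against 3.08 ± 2.28 at day 0 (SD, n = 3 each). It was the 1 member that passed, against 20.7% of all genes and 11.3% that fell, and without day 0 mutant replicate 3 it fell by 3.08 (0.00195). In controls no member passed over all arrays, against 11.2% of all genes, 1 had an unadjusted p under 0.05, and Nupr1 differed by -1.55 ± 1.02 (0.346). Without the array, which is no control but shares the spread, Nupr1 fell in controls by 1.55 (0.0180) and Hmox1 by 0.47 (0.0329), while Atf3 rose by 1.97 (8.36e-04) and Sesn2 by 0.64 (0.00523). Those were 4 of 9 members, against 26.9% of all genes. In mutants the same fit gave a rise of Atf3 by 2.24 (5.91e-04) and of Sesn2 by 0.51 (0.0143). Nupr1, Hmox1 (-0.55, 0.0228), Asns (-0.52, 0.0281) and Ddit3 (-0.63, 0.0492) fell, together 6 of 9 members against 22% of all genes. With that array in the fit Atf3 differed in mutants by 0.051 between the days, since its level of 4.06 there balanced the other 2. In mutants all day 2 arrays were below all day 0 arrays for 5 of 9 members (Nupr1, Ddit3, Asns, Chac1 and Hmox1), as for 22.2% of genes, and above them for none, as for 20.8%. Fitted on the 5 control arrays alone, Atf3 and Sesn2 rose with adjusted p of 0.0141 and 0.0350 in limma, and Nupr1 (0.0779) and Hmox1 (0.0630) did not pass. In that fit 15.5% of all genes passed and 7.32% rose. All day 2 controls were above all day 0 controls for Atf3 and Sesn2, as were 28.7% of genes, and below them for Nupr1 and Hmox1, as were 28%. The other probe of Sesn2 differed by -0.070 between the days in controls, so the rise rests on 1 of its 2 probes.

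Genes were also ranked by how closely their level followed a member over the 11 arrays, as a description in which single arrays and shared normalisation weigh heavily. Clk4, a splicing kinase, came first for Ddit3 (Pearson r = 0.992 over 11 arrays and 0.917 over the 10 without day 0 mutant replicate 3), and Herpud1, of ER-associated degradation, for Trib3 (0.957 and 0.924). Rfesd came first for Asns (0.979 and 0.980), Angptl8 for Atf4 (0.975 and 0.903), Snhg17 for Hmox1 (0.991 and 0.947) and Rlf for Nupr1 (0.980 and 0.939). Mpp3 came first for Atf3 (0.978 and 0.940), Pitpnm2 for Sesn2 (0.978 and 0.972) and Csf2rb for Chac1 (0.948 and 0.886). Each of these genes was picked for its high r over the 11 arrays, so these values cannot be set against those between members. Between members the array mattered for some pairs and little for others. Of 36 pairs, 4 had an r over 0.9 over 11 arrays and 3 over the other 10. Ddit3 and Atf4 had 0.96 and 0.90, and Atf3 and Sesn2 0.82 and 0.86. Nupr1 and Atf3 had an r of 0.39 over 11 arrays and -0.91 over the other 10, as Nupr1 was low and Atf3 high at day 2. Asns with Atf4 had 0.30 and 0.93, and Asns with Ddit3 0.11 and 0.92, as Asns alone was not high on that array.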

How the data were processed

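Liver RNA of 11 samples was labelled with Cy3 after linear amplification, per the labels' protocols, and hybridised to 1-colour Agilent arrays. The intensity values are spot signals that Agilent Feature Extraction 9.5.3.1 had background-subtracted and detrended, per the file headers. The deposited series table holds log2 values made by RMA, per the submitters' processing notes, with settings not given in the sources used here. Each of its 11 columns was closest to its own array (lowest r = 0.9802), with column medians of 7.608 to 7.637, and it served as an alternative.

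The main values were log2 processed signals minus the 75th percentile of each array's non-control spots. Of 41174 probes, 27090 were kept, those called well above background on all arrays of any 1 group, with the probe of highest mean for each gene (15946 genes). Names came from RefSeq (GRCm38.p6) by accession for 23374 probes, current symbol for 6733 and synonym for 2919; 1845 kept the file's name and 6303 had none. limma 3.58.1 in R 4.3.3 fitted group means over all arrays (lmFit, eBayes), with Benjamini-Hochberg adjustment over all genes and a threshold of 0.05. Differences are mutant minus control, day 2 minus day 0, or day 2 effect minus day 0 effect. The comparison over both days was also run on simulated data. Those had the same normal spread on every array, so they do not show how the fit handles an array that stands apart. Fits without day 0 mutant replicate 3 tested 16045 genes. Saturated spots were kept.

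Replicate numbers name slides, per the file headers, and all arrays were scanned on 1 day. Mutants and controls of one slide deviated together at day 2 (r = 0.281, 0.226 and 0.258) and less at day 0 (0.0619 and 0.0913), so the slide was tried as a block. Alternatives were other background correction, scaling, filters and probe rules, the authors' table, the slide as a block, sex as a covariate, array weights, each contrast's own groups, and leaving out each array.

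The members, gene lists and settings were chosen with earlier results of these data known. Genes named were the members, the genes of each list with the smallest p by comparison, a fixed set of stress genes and the gene most like each member. Others are marked where they appear.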

Additional observations from a re-analysis of the deposited data

Results flagged for a closer look

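For 11 of the 294 tested genes on the lists (3.74%), against 2.56% of all genes, every mutant was on one side of every control at day 0 and on the other side at day 2, and limma's test of the difference between the days passed for none of them. The day 2 difference minus the day 0 difference was -2.85 on the log2 scale for the member Nupr1. Its day 2 groups were barely apart, as the nearest mutant and control both round to -1.25. Among hypoxia, heat shock and immediate early genes it was -3.87 for Ankrd37, -1.18 for Hsf1 and -1.24 for Klf2. Among ER genes it was -1.37 for Manf, -1.41 for Sdf2l1, -0.78 for Sec61b and 0.64 for Mbtps2. It was -1.04 for Eif2s3x, which encodes an eIF2 subunit, -0.71 for Fth1, a ferritin chain, and 0.92 for the sestrin gene Sesn1. Day 0 mutant replicate 3 enters each of these values: without it the value was -1.53 for Nupr1 and, with adjusted p of 0.0288 and 0.0487 in limma, -1.07 for Manf and -0.96 for Sec61b. For the other genes the value without it is not given here.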

How the results depend on the processing

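Main results and 24 alternatives are compared here as log2 differences. Asns passed at day 2 in 23 of 24 alternatives, the exception being the authors' table. With the slide as a fixed replicate block, 1 member passed at day 2 and the value of Asns stayed at -0.86. The block changed no call of a member. Members called over both days numbered 1, 2 with array weights and 1 to 3 leaving out single arrays. At day 2 it was 1, 0 in the authors' table, 2 with array weights, 3 in the day 2 arrays alone and 1 to 4 leaving out single arrays. In mutants between the days it was 1, 2 with normexp, in the authors' table and with probes above background on all arrays, 5 with array weights and 1 to 6 leaving out arrays. In controls it was 0, 3 with array weights, 2 in control arrays alone and 0 to 4 leaving out arrays. At day 0 and for the difference between days it was 0 throughout.

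Signs turned for differences that were not called over all arrays, and 1 of them, that of Ddit3 over both days, was called once turned, at -0.54 without day 0 mutant replicate 3. With array weights (0.107 for day 0 mutant replicate 3) they became -0.42 for Ddit3 and -0.17 for Hmox1 over both days. At day 0 the same setting gave -0.057 for Ddit3, -0.34 for Atf4, -1.45 for Trib3, -0.94 for Chac1, -0.12 for Sesn2 and -0.12 for Hmox1. It also gave 1.02 for Trib3 and 0.40 for Chac1 in the difference between days, 0.58 for Trib3 in mutants between days, and -0.0055 for Ddit3 and -0.44 for Trib3 in controls. The slide block gave -0.10 for Ddit3 and -0.025 for Hmox1 over both days, -0.061 for Atf4, -0.84 for Trib3 and -0.52 for Chac1 at day 0, and -0.44 for Ddit3 and -0.93 for Trib3 in controls. The sex covariate, set by the day 2 arrays alone, gave 0.25 for Trib3 and 0.29 for Chac1 over both days. Quantile normalisation gave 0.0073 for Sesn2 over both days and -0.26 for Asns in controls. The authors' table gave 0.022 and -0.28 for these and -0.039 for Atf3 in mutants. Normexp gave -0.17 for Atf3 in mutants and median scaling 0.17 for Atf4 in controls.

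Leaving out single arrays, values over both days ran from -0.54 to 0.49 for Ddit3, -1.35 to 0.087 for Trib3, -1.03 to 0.0027 for Chac1, -0.23 to 0.032 for Sesn2 and -0.23 to 0.29 for Hmox1. At day 0 they ran from -0.21 to 1.85 for Ddit3, -0.061 to 3.35 for Atf3, -0.41 to 0.49 for Atf4, -1.68 to 1.14 for Trib3, -1.08 to 0.77 for Chac1, -0.17 to 0.36 for Sesn2 and -0.19 to 0.85 for Hmox1. The difference between days ran from -3.14 to 0.27 for Atf3, -2.17 to 0.66 for Trib3 and -1.74 to 0.11 for Chac1. In mutants between days the ranges were -1.16 to 2.24 for Atf3, -2.08 to 0.74 for Trib3 and -0.024 to 0.51 for Sesn2. In controls they were -0.18 to 0.25 for Ddit3, -0.18 to 0.12 for Atf4 and -0.93 to 0.63 for Trib3. A day 0 control left alone was assumed to vary like the other groups. Over all genes, the calls over both days numbered 2506 and ranged from 1082 to 4860 over the alternatives. The same range was 29 to 1283 at day 0 (366), 1439 to 5591 at day 2 (2582), 5 to 566 for the difference between days (43), 1404 to 4737 in mutants (3302) and 316 to 5366 in controls (1788). Scaling moved the split between the days, 1498 rises and 1804 falls in mutants, to 1501 and 2767 with normexp and 2100 and 1229 with median scaling, and in controls median scaling gave 1283 and 468 against 873 and 915. The cause was not tested for any of these, except that leaving out or weighting down day 0 mutant replicate 3 removes its own values and spread.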

Other observations

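Some genes next to the response in function differed between the genotypes over both days. Ddit4l, a relative of the mTORC1 inhibitor Ddit4, rose over both days by 3.67 on the log2 scale (adjusted p = 5.27e-05 in limma), with 0.78, 0.99 and 1.23 in day 2 mutants, against -2.59, -2.40 and -3.59 in day 2 controls. Gclc, which catalyses the first step of glutathione synthesis, rose by 1.07 (2.01e-04), while Nqo1, the usual NRF2 marker, differed by 0.40 and did not pass (0.270). Of 31 NRF2 targets and heme genes 3 rose and 0 fell over both days, the others being Me1 (1.46, 0.0294) and Ugdh (0.68, 0.0219). Of 19 p53 targets 3 rose, Phlda3 by 1.03 (0.00741), Trp53inp1 by 0.81 (0.00925) and Zmat3 by 0.54 (0.0466), and Fas fell by 0.71 on the log2 scale (0.00961). Of 20 immediate early genes 2 rose, Jun by 1.83 (0.0213) and Nr4a1 by 1.68 (0.0147). Cebpa, a bZIP factor of mature hepatocytes, fell by 0.64 on the log2 scale (0.0118). Among all genes 15.7% passed in this comparison, a larger share than in the list of NRF2 targets and heme genes. Day 0 mutant replicate 3 enters each of these differences, and on it 15 of 19 immediate early genes were at least 2-fold higher. The differences without that array are not given here for these genes.

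Between the days, 11 of 21 hypoxia genes fell in mutants and 0 rose (12 and 1 without day 0 mutant replicate 3), among them the glucose transporter gene Slc2a1 by 2.93 on the log2 scale (adjusted p = 0.00220 in limma) and the pyruvate dehydrogenase kinase gene Pdk1 by 0.95 (0.00358). Of 31 ER genes 8 fell and 2 rose (9 and 2 without that array), with Pdia6 at -0.99 (0.00312), Manf at -1.18 (0.00988) and Xbp1, the factor of the unfolded protein response, at -0.91 (0.0282). In this comparison 20.7% of all genes passed, and 22% without that array. The array enters the named differences, and on it 17 of 21 hypoxia and 11 of 31 ER genes were at least 2-fold above the other day 0 mutants. The change of these lists in controls is not given here, so the falls are not shown to be particular to mutants.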
